A study of Mus musculus with 13 samples.

Results

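The genes described are 5 serpins that act inside cells: Serpinb6b, Serpinb9, Serpinb6a, Serpinb1a and Serpina3g. They are 5 of the 68 rows named as serpin genes or pseudogenes in an RNA-seq count table of 56941 genes, and were found there by matching gene identifiers to symbols. These genes were chosen from earlier results on the same libraries, with their levels in both genotypes already known. Their levels and fold changes are therefore given as a description, without a test. The 6 libraries come from mouse Th17 cells, CD4 helper T cells whose signature cytokine is IL-17. They were grown from naive CD4+ T cells of the spleen for 72 hours under Th17-polarizing conditions. One group (KO, 3 libraries) has the genotype Chaf1bfl/fl;Il17fCre+, in which Cre recombinase is tied to Il17f and so acts in cells that have switched on that gene. The other group (WT, 3 libraries) is labelled Chaf1bWT, without a statement on Cre, and the labels give neither strain nor age of the mice. Chaf1b is a subunit of chromatin assembly factor 1, which places histones on newly copied DNA. The comparison addresses how gene expression in Th17 cells depends on Chaf1b.

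Serpins are protease inhibitors that work as a trap. The protease cuts an exposed loop of the serpin, the serpin refolds, and both proteins stay locked together and inactive. Clade B serpins lack a classical secretion signal and stay in the cytosol and nucleus, where they protect a cell from proteases that leak out of its own granules or lysosomes. Serpinb9 is the known inhibitor of granzyme B, the main granule protease of killer lymphocytes, and Serpinb6b has been described as an inhibitor of granzyme A. The label of granzyme blockers does not cover the other 3 genes equally. Serpinb6a and Serpinb1a are best known against neutrophil serine proteases such as cathepsin G and elastase. Serpina3g, also called Spi2A, is an intracellular member of a mostly secreted clade and is known as an inhibitor of lysosomal cathepsins.

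Libraries held between 35708879 and 45232055 counts. Chaf1b was counted at 541, 438 and 525 in the WT libraries and 572, 567 and 498 in the libraries labelled KO, a log2 fold change of 0.31 ± 0.11 (SE; adjusted p = 0.13 in edgeR's quasi-likelihood test). The labels do not say which part of the gene is removed and the counts sum all its exons, so this value does not check the genotype. KO below stands for the libraries labelled KO, and every direction rests on that label. At an adjusted p under 0.05, 6.39% of the 14681 tested genes were called, 3.92% as higher and 2.47% as lower in KO. The 938 calls became 2961 without WT replicate 1, and 366, 295, 314 and 326 without WT replicate 2 and KO replicates 1, 2 and 3. In bulk RNA a change in RNA per cell and a change in the share of cells of a type cannot be told apart. These serpins are also found in other white blood cells, so summed marker levels were read beside them. The 5 genes that define Th17 cells summed to 92.3 to 208 CPM (counts scaled to library size) in WT and 33.1 to 34.9 CPM in KO, with 3 of 5 called lower. Neutrophil markers, the cells richest in Serpinb1a, summed to at most 0.195 CPM in any library, and S100a8, S100a9, Retnlg and Elane had no counts. Among 8 NK cell markers Ncr1, Klrb1c and Klra8 had no counts. The sum ran from 7.43 to 11 CPM in WT and from 13.2 to 16.3 CPM in KO. Of 3 tested genes Gzma and Eomes were called higher, and Klri2 was fitted lower and not called (log2 fold change -0.24 ± 0.26 SE). The 6 gamma delta T cell markers summed to 51.0 to 63.0 CPM in WT and 96.0 to 101 CPM in KO, with 4 called higher. These 4 were receptor constant genes, mainly Trdc (41.2 ± 6.3 and 65.7 ± 2.35 CPM, SD, n = 3). The others, Sox13 (log2 fold change -0.38 ± 0.47) and Blk (-1.85 ± 0.73, SE), were fitted lower at under 1 CPM and not called. The 10 macrophage and monocyte markers summed to 7.62 to 8.44 CPM in WT and 14.3 to 16.4 CPM in KO, with 1 of 6 tested genes called higher (Ly6c2), C1qb at 0 and Csf1r at no more than 3 counts in any library. The 10 dendritic cell markers summed to 148 to 156 CPM in WT and 207 to 216 CPM in KO, mostly from Cd74. That gene was at 113 ± 3.09 and 162 ± 3.3 CPM (SD, n = 3). Of 4 tested genes Cd74 and H2-Aa were called higher, and H2-Ab1 and Zbtb46 were not called. Itgax and Flt3 had too few counts to be tested, and Clec9a, Siglech and Cd209a were at 0. The 7 B cell markers summed to 68.3 to 81.6 CPM in WT and 96.9 to 103 CPM in KO, mostly from Ighm (54.3 ± 7.95 and 85.0 ± 2.38 CPM, SD, n = 3). Of 4 tested B cell markers Ighm and Cd79b were called higher and Ebf1 lower, and Pax5 had 16, 8 and 2 counts in WT and 0 in KO. For each of these sums except that of neutrophils the groups did not overlap, and the two-sided exact permutation test gave p = 0.1, the smallest that 3 against 3 libraries allow (adjusted p = 0.162 over 13 marker lists). Among the remaining lists, CD8 T cell markers overlapped between the groups (14.1 to 16 CPM in WT and 12.4 to 16.6 CPM in KO). So did the sums for CD4 and pan T cells, regulatory T cells, and mast cells and basophils. The regulatory T cell sum came mostly from Il2ra (1090 ± 63.3 and 1070 ± 13.9 CPM, SD, n = 3). Of its 5 tested genes Foxp3 was called lower (log2 fold change -0.9 ± 0.16 SE, edgeR adjusted p = 0.00841). Ikzf2 was called higher (0.61 ± 0.13 SE, edgeR adjusted p = 0.0218). Stromal and endothelial markers were lower in every KO library (29.9 to 34.6 and 27.6 to 29.8 CPM). Erythroid markers were higher in every KO library (0.39 to 0.835 and 1.49 to 4.94 CPM). The part of these cells in the serpin levels was not tested.

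Serpinb6b and Serpinb9 both stood at more than double their WT level in the libraries labelled KO. Serpinb6b (ENSMUSG00000042842.12) was counted at 9622, 8769 and 10549 in WT and at 18762, 19186 and 17775 in KO. These are 235, 229 and 232 CPM in WT and 534, 503 and 483 CPM in KO, or 232 ± 3.00 and 507 ± 26.0 CPM (SD, n = 3). The 3 WT libraries were almost level, and the lowest KO library lay 2.06-fold above the highest WT library. The fitted fold change was 2.19 (log2 fold change 1.13 ± 0.05 SE, 95% interval 1.02 to 1.24).

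Serpinb9 (ENSMUSG00000045827.11), the granzyme B inhibitor, was counted at 4991, 5406 and 6512 in WT and at 10833, 10778 and 9931 in KO. In CPM the WT libraries held 122, 141 and 143 and the KO libraries 309, 283 and 270, giving 135 ± 11.8 and 287 ± 19.8 CPM (SD, n = 3). WT replicate 1 was the lowest of the 6 libraries and KO replicate 1 the highest, and the groups were 1.89-fold apart at their closest. The fold change was 2.12 (log2 fold change 1.09 ± 0.07 SE, 95% interval 0.93 to 1.24).

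Serpina3g (ENSMUSG00000041481.18), the cathepsin inhibitor, had a fold change of the same size at far fewer counts. It was counted at 113, 79 and 94 in WT and at 188, 172 and 175 in KO. The levels were 2.75, 2.06 and 2.07 CPM in WT and 5.36, 4.51 and 4.75 CPM in KO (2.29 ± 0.400 and 4.87 ± 0.435 CPM, SD, n = 3). Here too every KO library lay above every WT library, with replicate 1 the highest in each group. The fold change was 2.12 with a wider interval (log2 fold change 1.09 ± 0.18 SE, 95% interval 0.68 to 1.49).

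Serpinb6a and Serpinb1a overlapped between the groups. Serpinb6a (ENSMUSG00000060147.16), a widely expressed inhibitor of cathepsin G, was counted at 2928, 2069 and 2342 in WT and 1983, 2431 and 1875 in KO. Its levels were 71.4, 53.9 and 51.4 CPM in WT and 56.5, 63.7 and 50.9 CPM in KO, so the groups overlapped and WT replicate 1 was the highest of the 6 libraries. The log2 fold change was -0.05 ± 0.12 (SE, 95% interval -0.32 to 0.23), and 0.12 without WT replicate 1. Any difference within 0.798-fold to 1.18-fold is compatible with that interval.

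Serpinb1a (ENSMUSG00000044734.17), which restrains neutrophil elastase and its relatives, was counted at 107, 48 and 90 in WT and 69, 90 and 90 in KO. The levels were 2.61, 1.25 and 1.98 CPM in WT and 1.97, 2.36 and 2.44 CPM in KO. WT replicates 1 and 2 were the highest and the lowest of the 6 libraries, so the whole KO range lay inside the WT range. The log2 fold change of 0.21 ± 0.27 (SE) had an interval from -0.38 to 0.80, so any difference from 0.768-fold to 1.75-fold is compatible with these counts. It was -0.02 without WT replicate 2 and 0.48 without WT replicate 1.

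In 3 of the 5 genes, Serpinb6b, Serpinb9 and Serpina3g, every KO library lay above every WT library, as in 14.4% of all tested genes, and none lay wholly below (12.4%). A log2 fold change of at least 0.9 was reached by these same 3 genes and by 2.49% of tested genes. Since the genes were picked with these values known, the shares are printed for scale only.

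**Figure D1:**
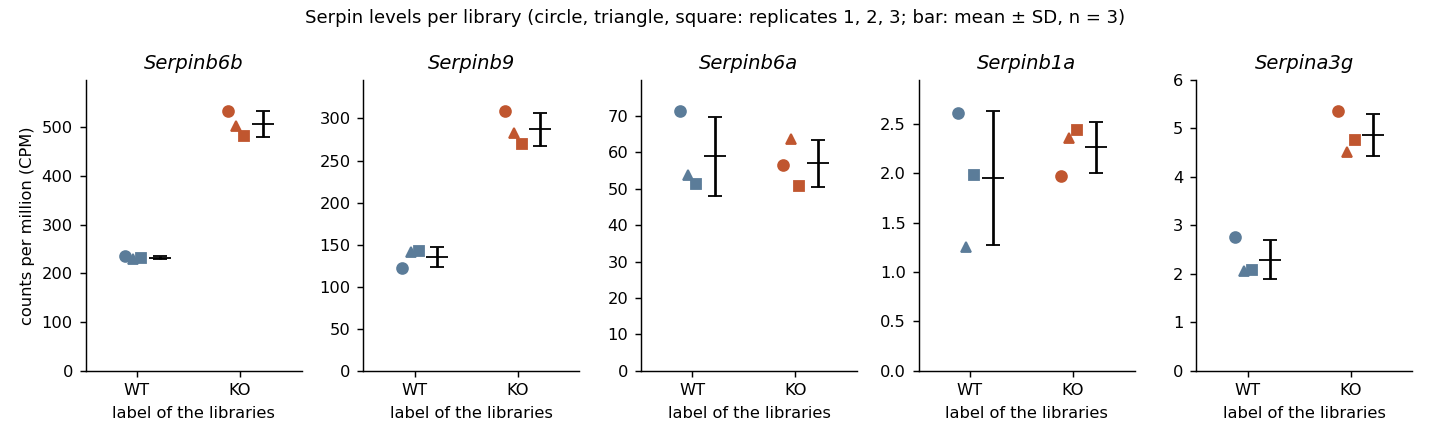
Level of each of the 5 serpins in CPM (vertical axis, from 0, its own scale for each gene) in the 3 WT and 3 KO libraries, with circles, triangles and squares for replicates 1, 2 and 3 and bars for the mean ± SD. KO and WT points are apart for Serpinb6b, Serpinb9 and Serpina3g and overlap for Serpinb6a and Serpinb1a.

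How alike the 5 genes were across libraries was measured as the root mean square difference between their log2 CPM, each centred on its own mean over the 6 libraries. Serpinb6b and Serpinb9 were the closest pair, at 0.0871. Serpina3g followed at 0.139 from Serpinb6b and 0.215 from Serpinb9. Serpinb6a and Serpinb1a were 0.304 apart, and each lay between 0.487 and 0.611 from the other 3 genes. All 6 points share the split into 2 groups of 3 libraries, so a like difference between the groups brings genes near each other.

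By the same measure over the 6 libraries, the nearest of 9224 genes with a mean of at least 5 CPM were found for each serpin, leaving the 5 serpins themselves and predicted genes out of the candidates. For Serpinb6b they were Il23a, a subunit of the cytokine IL-23, at 0.0540, the endocytic adaptor gene Hip1 at 0.0596 and the cytokine gene Il1a at 0.0749. Il23a was at 130, 128 and 127 CPM in WT and 272, 264 and 248 CPM in KO. Like Serpinb6b, it was nearly level across WT and higher in every KO library. For Serpinb9 they were the cell cycle inhibitor locus Cdkn2a at 0.0833, the flippase gene Atp8b4 at 0.0836 and again Il23a at 0.0922. For Serpina3g they were Spp1, which encodes osteopontin, at 0.0815, the exonuclease gene Isg20 at 0.0895 and Hip1 at 0.0898. Serpinb6a was closest to the cytokine feedback gene Socs1 at 0.0416, to Tnfrsf18, the receptor GITR, at 0.0416 and to Tspyl3 at 0.0488. Each of these 3 was highest in WT replicate 1, as was Serpinb6a (23.4, 69.0 and 25.9 CPM there). Serpinb1a was closest to Cyb561 at 0.137, Irgm2 at 0.154 and Pxylp1 at 0.157, which are poorer matches than those of the other serpins.

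The rest of the serpin family was mostly silent in these cells, and its few expressed members include Serpinb9b and Serpina3f, which rose. Of the 63 other serpin rows 40 had 0 counts throughout, and 10 passed the filter on low counts. A single count of 0 could miss a level of up to 3 counts, and 0 in every library bounds the mean level more tightly. Of 23 other clade B genes matched to rows, 14 had no counts, 4 were tested and 1, Serpinb9b, was higher. Of all tested genes 3.92% were called higher. Serpinb9b, a close relative of Serpinb9, was counted at 44, 25 and 41 in WT and 123, 132 and 104 in KO. Its level went from 0.875 ± 0.212 to 3.26 ± 0.380 CPM (SD, n = 3), a log2 fold change of 1.89 ± 0.25 (SE; adjusted p = 0.00115 in edgeR's quasi-likelihood test over all genes). The call held under all 14 alternatives, with adjusted p from 1.22e-09 to 0.0159.

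The other 3 tested clade B genes did not pass. Serpinb1b, related to Serpinb1a, was near the detection limit, with counts of 6, 4 and 0 in WT and of 10, 20 and 10 in KO (log2 fold change 2.11 ± 0.78, edgeR adjusted p = 0.141), and passed without WT replicate 1 (2.82, adjusted p = 0.0355). Serpinb2, an inhibitor of plasminogen activators, stood at 5.47 ± 0.411 and 5.91 ± 0.466 CPM (SD, n = 3; 0.11 ± 0.14, edgeR adjusted p = 0.701). Serpinb8, an inhibitor of furin, was also rare, with 8 to 25 counts per library (0.31 ± 0.48, edgeR adjusted p = 0.777). The remaining 5 clade B genes with any counts held between 2 and 49 counts over all 6 libraries and were not tested.

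In the Serpina3 cluster Serpina3f, the neighbour and close relative of Serpina3g, was counted at 18, 16 and 30 in WT and 59, 87 and 84 in KO. It rose from 0.505 ± 0.134 to 2.08 ± 0.347 CPM (SD, n = 3; log2 fold change 2.03 ± 0.30 SE, edgeR adjusted p = 0.00256), and the call held under all 14 alternatives (adjusted p from 3.68e-07 to 0.0256). Serpina3n had 2 to 10 counts per library and was not tested, and 8 of the 10 listed genes of that cluster had no counts.

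Secreted and other serpins showed small or unsettled differences. Of 25 listed genes 14 had no counts and 5 were tested. Serpine2, known as protease nexin 1, was at 40.6 ± 3.67 and 47.8 ± 2.26 CPM (SD, n = 3; 0.23 ± 0.08, edgeR adjusted p = 0.102), and passed without WT replicate 3 (0.31, adjusted p = 0.0258). Serpinf1, the anti-angiogenic factor PEDF, was counted at 398, 157 and 167 in WT and at 100, 91 and 91 in KO, with WT replicate 1 far above the rest. Its log2 fold change of -1.18 ± 0.35 had an edgeR adjusted p of 0.0794, and the gene passed as lower without WT replicate 1 (-0.59, adjusted p = 0.0428) or WT replicate 3 (-1.43, adjusted p = 0.0195). Serpini1, neuroserpin, with 22 to 47 counts per library (0.80 ± 0.36, adjusted p = 0.236), and Serpinc1, antithrombin, at 4.33 ± 0.698 and 4.03 ± 0.392 CPM (-0.10 ± 0.17, adjusted p = 0.79), did not pass edgeR's test.

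**Figure D2:**
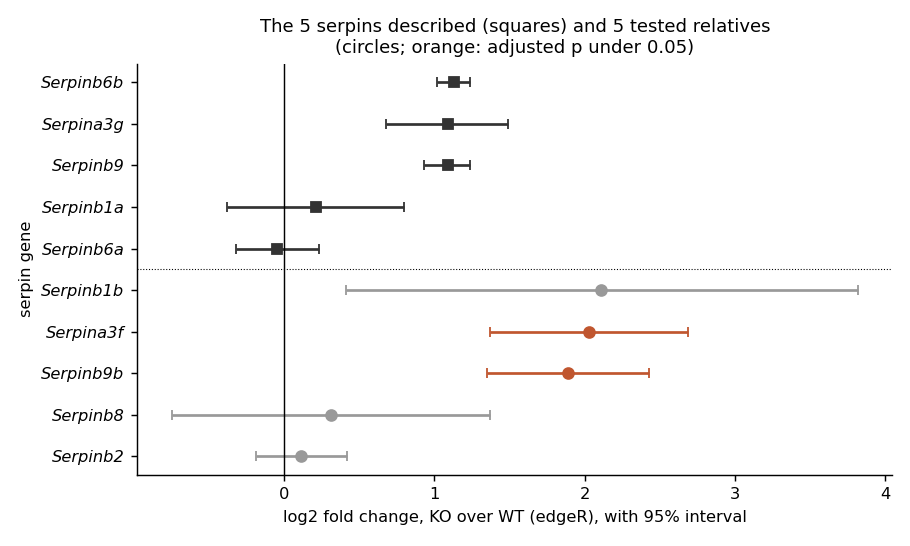
Log2 fold change of KO over WT (horizontal axis) with its 95% interval for the 5 serpins described (squares, for which no test is given) and the 5 other tested serpins of clade B and the Serpina3 cluster (circles, orange where the adjusted p is under 0.05). Serpinb9b and Serpina3f have larger fold changes than their relatives Serpinb9 and Serpina3g, with wider intervals.

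Reads of relatives as close as Serpinb9 and Serpinb9b, or Serpina3g and Serpina3f, can be assigned to the wrong gene or dropped, so the levels of Serpinb9b and Serpina3f are uncertain. The ratio of each to its more abundant relative was therefore taken in each library. Serpinb9b had 0.882, 0.462 and 0.630 counts per 100 counts of Serpinb9 in WT and 1.14, 1.22 and 1.05 in KO, so the ratio was higher in every KO library. Serpina3f had 15.9, 20.3 and 31.9 counts per 100 of Serpina3g in WT and 31.4, 50.6 and 48.0 in KO, with an overlap of the groups. The ratio of Serpinb9 to Serpinb6b was flat by comparison, at 58.4 ± 5.67 counts per 100 in WT and 56.6 ± 1.00 in KO (SD, n = 3).

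The clade B serpins with the largest fold changes sit side by side, although Serpinb1b did not pass the test. In the gene order of chromosome 13 in the GRCm38.p6 RefSeq table, 17 serpin genes and pseudogenes follow each other with Serpinb1a at one end and Serpinb6a at the other. Only 6 of the 17 were tested. Serpinb6b, Serpinb9, Serpinb9b and Serpinb1b are 4 consecutive serpins in this stretch. They were the 4 with log2 fold changes of at least 0.9 (1.13, 1.09, 1.89 and 2.11), a size reached by 2.49% of all tested genes. These 4 are all the tested serpins between Serpinb1a and Serpinb6a, and Serpinb6b and Serpinb9 were picked with their values known. Between Serpinb1b and Serpinb6a lie 9 further serpin genes, of which 7 had no counts in any library, Serpinb6e had 4 counts over all libraries and Serpinb9h was not matched to a row. Serpinb1a, at the near end, had 0.21 ± 0.27 and Serpinb6a, at the far end, -0.05 ± 0.12 (SE). The nearest tested flanking genes had values of 0.14 ± 0.05 for Wrnip1 beside Serpinb1a and 0.45 ± 0.23 for Nqo2 beside Serpinb6a, with Ripk1 after Nqo2 at -0.06 ± 0.06, and the noncoding gene Gm6093 inside the stretch had -0.28 ± 0.16 (SE). These neighbours were looked up after the values were seen and carry no test. On chromosome 12 Serpina3f and Serpina3g are likewise adjacent, and were the 2 tested genes among 14 serpins and pseudogenes of the Serpina3 cluster, 10 of which had no counts. The nearest tested genes outside that cluster were Ifi27 at 0.60 ± 0.14 on the Serpina3f side and Dicer1 at -0.19 ± 0.07 on the other, with Syne3 after Dicer1 at 0.31 ± 0.08 (SE).

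In the same table Serpinb6a shares its span with Ripk1 and Nqo2, and Serpinb9 with the noncoding gene Gm36181. The counts were made without strand, so reads from overlapping exons of such genes cannot be told apart. Ripk1, with 15015 counts over all libraries, had a log2 fold change of -0.06 and Nqo2, with 541 counts, of 0.45 ± 0.23 (SE).

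**Figure D3:**
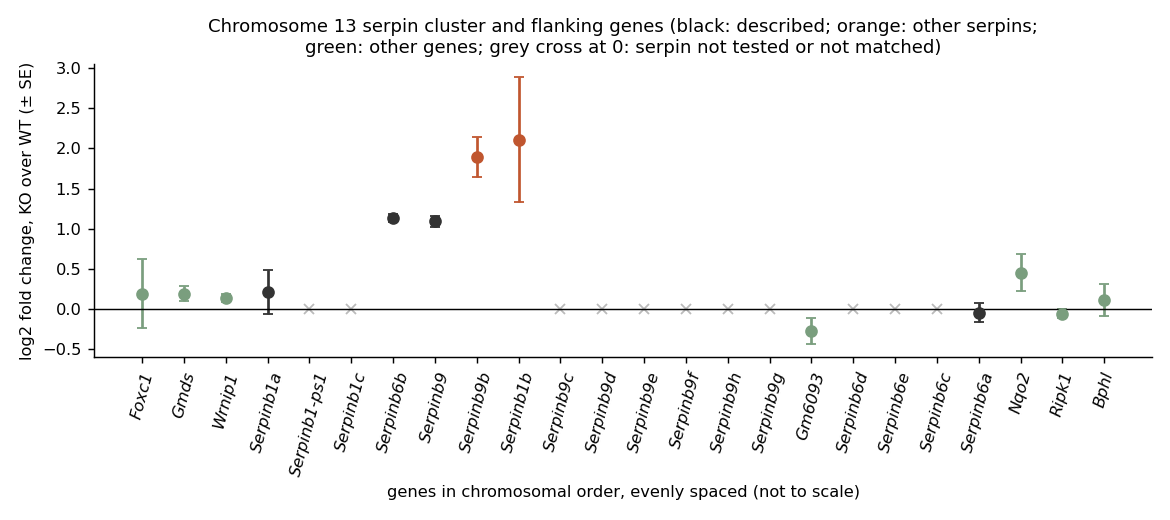
Log2 fold change of KO over WT (vertical axis, ± SE) for the genes of the chromosome 13 serpin cluster and 3 tested genes on either side, evenly spaced in chromosomal order (horizontal axis, not to scale), with crosses for serpins that were not tested or not matched. The values from 1.09 to 2.11 belong to the 4 consecutive serpins Serpinb6b, Serpinb9, Serpinb9b and Serpinb1b.

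The sequences before the starts of Serpinb6b, Serpinb9, Serpina3g and 2 close relatives are shown because neighbours in each cluster were higher together in KO. Each is the stretch of 250 bases before the gene start in the RefSeq annotation of GRCm38.p6, which held 4 of the 5 serpins described. Capitals mark matches, on either strand, to any of 10 short motifs.
Serpinb6b, chr13:32965011-32965260, plus strand: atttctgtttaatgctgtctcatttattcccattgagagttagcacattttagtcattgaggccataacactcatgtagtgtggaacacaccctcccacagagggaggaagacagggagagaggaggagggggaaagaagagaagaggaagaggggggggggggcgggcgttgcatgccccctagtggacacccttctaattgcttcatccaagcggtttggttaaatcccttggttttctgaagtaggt
Serpinb9, chr13:33004291-33004540, plus strand: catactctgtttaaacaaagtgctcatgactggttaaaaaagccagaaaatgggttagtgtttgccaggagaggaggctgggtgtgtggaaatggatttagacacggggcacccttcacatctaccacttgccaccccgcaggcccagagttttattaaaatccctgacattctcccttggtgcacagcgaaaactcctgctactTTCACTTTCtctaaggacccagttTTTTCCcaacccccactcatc
Serpinb9b, chr13:33027164-33027413, plus strand: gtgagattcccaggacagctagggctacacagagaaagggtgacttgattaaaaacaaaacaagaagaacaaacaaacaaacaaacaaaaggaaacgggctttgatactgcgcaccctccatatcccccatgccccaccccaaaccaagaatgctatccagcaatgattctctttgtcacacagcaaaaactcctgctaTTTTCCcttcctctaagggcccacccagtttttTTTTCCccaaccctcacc
Serpina3g, chr12:104235897-104236146, plus strand: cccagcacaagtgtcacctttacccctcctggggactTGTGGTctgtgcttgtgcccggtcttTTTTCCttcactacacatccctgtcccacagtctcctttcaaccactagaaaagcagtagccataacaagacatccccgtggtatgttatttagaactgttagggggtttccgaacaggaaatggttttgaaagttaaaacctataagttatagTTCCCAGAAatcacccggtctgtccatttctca
Serpina3f, chr12:104214294-104214543, plus strand, the first of 2 listed starts: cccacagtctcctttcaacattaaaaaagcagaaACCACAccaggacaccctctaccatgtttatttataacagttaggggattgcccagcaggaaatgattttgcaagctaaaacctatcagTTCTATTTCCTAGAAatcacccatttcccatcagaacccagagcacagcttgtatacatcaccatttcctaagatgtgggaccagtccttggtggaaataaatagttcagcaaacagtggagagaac

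Relatives within a cluster had related upstream sequence. In the best local alignment of their windows, Serpina3g and Serpina3f had 119 of 147 columns identical (81.0%), with a longest shared run of 19 bases. Serpinb9 and Serpinb9b had 119 of 169 columns identical (70.4%) and a longest run of 13 bases. Serpinb6b, although next to Serpinb9, had no alignment of that strength to it, with an alignment score of 15.0 against 67.5 for Serpinb9 and Serpinb9b (1 per match, -1 per mismatch, -2 to open a gap and -0.5 for each further gapped position).

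The motifs searched were AP-1 (TGANTCA), a Jak-Stat site (TTCNNNGAA), IRF (GAAANNGAA), T-box (TCACACC), NF-kB (GGGANNTTC), ETS (GGAAGT), Runx (TGTGGT), a ROR site (AGGTCA), Egr (GCGTGGGCG) and NFAT (GGAAAA). The Serpinb6b window held none of the 10. Serpinb9 held an IRF match on the other strand 37 to 45 bases before the start and an NFAT match at 16 to 21 bases. Serpinb9b held an NFAT match at 13 to 18 bases, near the position in Serpinb9, and another at 46 to 51 bases, and no IRF match. Serpina3g held a Jak-Stat match 25 to 33 bases before the start, with Runx at 208 to 213 and NFAT at 182 to 187 bases. Serpina3f held a Jak-Stat match at 113 to 121 bases that overlaps an IRF match at 119 to 127 bases, and a Runx match at 211 to 216 bases. The first of 2 starts of Serpinb6a, whose levels overlapped between groups, also held overlapping Jak-Stat and IRF matches, at 69 to 77 and 75 to 83 bases. Among 32851 windows of this length, 7.13% held the IRF motif, 7.02% the Jak-Stat site, 14.0% Runx and 20.4% NFAT. No shown window held the AP-1, T-box, NF-kB, ETS, ROR or Egr letters, found in 6.75%, 3.33%, 3.23%, 19.7%, 14.0% and 0.536% of windows.

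The proteases that these serpins face were read next. Of 7 tested genes for granzymes and perforin 4 were called higher and none lower, against 3.92% and 2.47% of all tested genes. The median log2 fold change was 1.21 against -0.01 for all tested genes. Among those not called, Gzmd (1.21 ± 0.35) and Gzme (0.44 ± 0.6) were fitted higher and Gzmm (-0.48 ± 0.43, SE) lower. Gzmb, the target of Serpinb9, had a log2 fold change of 1.38 ± 0.04, Gzmc of 1.41 ± 0.07 and the pore-forming perforin gene Prf1 of 1.36 ± 0.07 (SE), and all 3 passed under all 14 alternatives. Gzma, which encodes granzyme A, rose from 4.54 ± 1.11 to 7.70 ± 1.39 CPM (SD, n = 3; 0.76 ± 0.20, adjusted p = 0.0466 in edgeR's test). The Gzma call missed the threshold when WT replicate 2 or any KO library was left out (adjusted p from 0.0923 to 0.235), with limma-voom (0.0524) and with a stricter filter on low counts (0.0515).

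Serpin and protease were then set against each other within each library. Gene lengths are not in the table, so a ratio has meaning only when compared between libraries. Serpinb9 had 24.1, 27.4 and 27.4 counts per 100 counts of Gzmb in WT and 22.4, 20.9 and 20.8 in KO. Every KO ratio lay below every WT ratio, and the mean went from 26.3 ± 1.92 to 21.4 ± 0.908 (SD, n = 3), a fold of 0.813 that ran from 0.780 to 0.831 when 1 library at a time was left out. Serpinb9 was thus higher in KO in CPM and lower relative to Gzmb. For Serpinb6b against Gzma the ratios overlapped, with a mean fold of 1.25 that rests on few Gzma counts (125 to 324 per library). Serpina3g had 0.946, 0.825 and 0.845 counts per 100 counts of the cathepsin gene Ctsb in WT and 2.09, 1.77 and 1.87 in KO, a fold of 2.19, with Ctsb itself at 262 ± 25.5 and 255 ± 1.40 CPM (SD, n = 3).

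**Figure D4:**
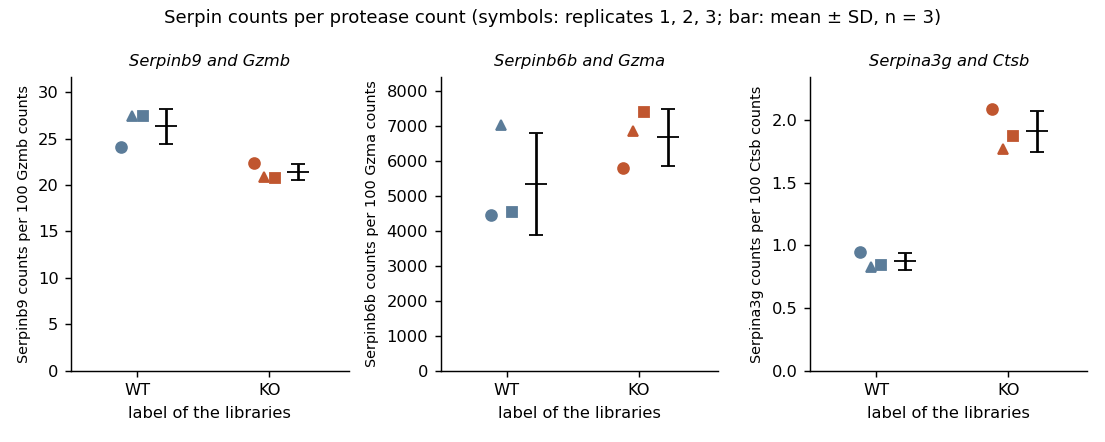
Counts of a serpin per 100 counts of a protease in the same library (vertical axis, from 0) for Serpinb9 and Gzmb, Serpinb6b and Gzma, and Serpina3g and Ctsb, in 3 WT and 3 KO libraries with mean ± SD. The Serpinb9 ratio is lower in every KO library, the Serpina3g ratio is higher in every KO library, and the Serpinb6b ratios overlap.

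Lysosomal cathepsins, the targets ascribed to Serpina3g, mostly did not pass the test. Of 12 tested genes of the list of cathepsins and legumain 2 were higher and none lower, against 3.92% and 2.47% of all tested genes. The median log2 fold change of the list was 0.07. The higher pair were Ctsw, a cathepsin of cytotoxic lymphocytes, which rose from 6.73 ± 1.54 to 17.8 ± 1.98 CPM, and the aspartic protease gene Ctsd, which rose from 91.9 ± 4.86 to 124 ± 1.98 CPM (SD, n = 3). Their log2 fold changes were 1.40 ± 0.16 and 0.43 ± 0.05 (edgeR adjusted p = 5.96e-04 and 8.74e-04). Ctsb had -0.04 ± 0.06 (adjusted p = 0.793), Ctsl 0.09 ± 0.08 (0.55) and Ctss 0.02 ± 0.07 (0.922), all SE and edgeR's test. Of the 11 neutrophil and mast cell serine proteases on the list, the class that Serpinb6a and Serpinb1a restrain, 8 had no counts and the other 3 had too few to be tested.

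Genes for storing and releasing granules showed 2 of 14 higher and none lower (median 0.02), against 3.92% and 2.47% of all tested genes. Nkg7, a granule membrane protein gene of cytotoxic cells, rose from 114 ± 17.8 to 207 ± 10.4 CPM (SD, n = 3; log2 fold change 0.87 ± 0.10, edgeR adjusted p = 0.00113), and Rab27a, a GTPase gene for granule docking, from 35.4 ± 0.409 to 43.1 ± 2.16 CPM (0.28 ± 0.07, adjusted p = 0.0278). The Rab27a call missed it when WT replicate 2 or any KO library was left out (adjusted p from 0.0772 to 0.17), which left 1 gene called, and 4 were called without WT replicate 1. Srgn, the granule proteoglycan serglycin, did not pass (-0.05 ± 0.05, edgeR adjusted p = 0.584).

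Inhibitors of other classes had 1 of 9 tested genes higher and none lower (median 0.08), against 3.92% and 2.47% of all tested genes. Cstb, a cytosolic inhibitor of cysteine cathepsins, rose from 54.8 ± 2.53 to 69.8 ± 2.22 CPM (SD, n = 3; log2 fold change 0.35 ± 0.06, edgeR adjusted p = 0.00593), a call lost without KO replicate 1 (0.0579). Without WT replicate 1 the count of called genes was 3. Cst7, the inhibitor of granule cathepsins known as cystatin F, had 0.17 ± 0.07 (edgeR adjusted p = 0.165).

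Caspases and inhibitors of apoptosis, only some of which act downstream of granzyme B in a target cell, had 2 of 19 higher and 1 lower (median -0.04). The shares over all tested genes were 3.92% higher and 2.47% lower. Casp1, which encodes the protease that matures IL-1 beta, rose (0.35 ± 0.09, adjusted p = 0.0373), and Birc3, which encodes the ubiquitin ligase cIAP2, fell by 0.24 on the log2 scale (adjusted p = 0.0169, both in edgeR's test). No gene of this list was called without any 1 of the KO libraries and 1 was called without WT replicate 2, against 9 without WT replicate 1. Without one of those libraries the adjusted p was up to 0.181 for Casp1 and 0.104 for Birc3.

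**Figure D5:**
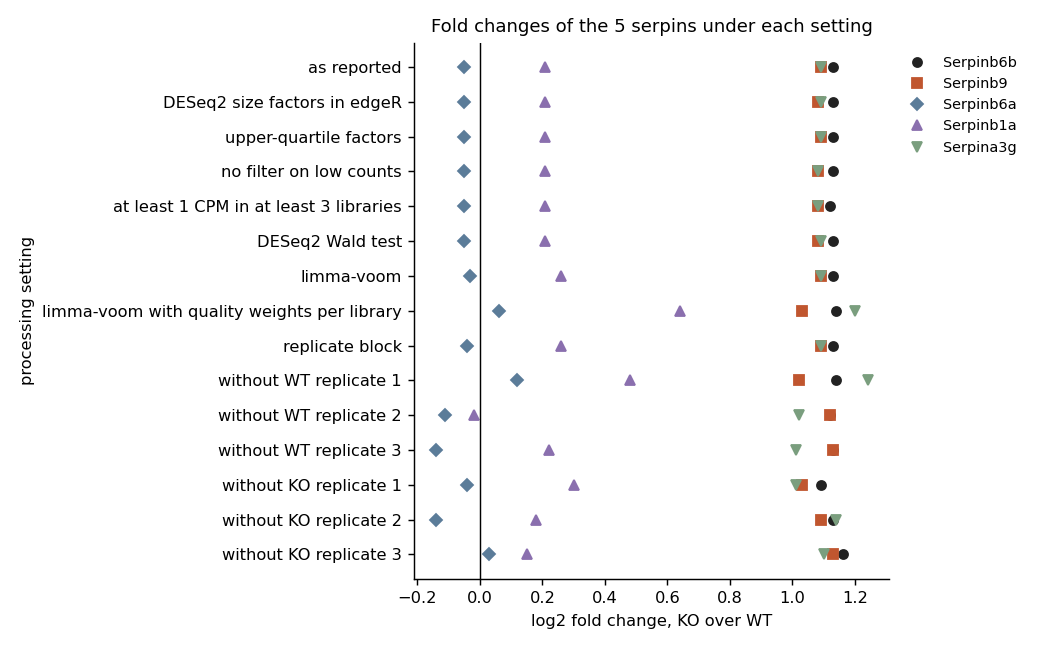
Log2 fold change of KO over WT (horizontal axis) of the 5 serpins as reported and under 14 other settings (vertical axis), including each fit without 1 library. Serpinb6b, Serpinb9 and Serpina3g lie between 1.01 and 1.24 throughout, while Serpinb6a crosses 0 and Serpinb1a runs from -0.02 to 0.64.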

How the data were processed

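RNA-seq counts of 3 WT and 3 KO libraries were used, and the 7 samples of other assays among the 13 were not analysed here. The authors deposited raw counts per gene, per the file headers made by summing reads over the exons of GENCODE vM33 genes with featureCounts 2.0.1. Per the file headers no option for strand, multi-mapping reads or read pairs was set (for KO replicate 1 the header lacks option names). Aligner and build: not given in the sources used here. In the record of units the deposited column of WT replicate 2 is entered as other and it holds raw counts like the rest. Low counts were mostly even (65.6% to 67.7% of counts from 1 to 20, against 48.8% to 50.9% of high counts), so both mates of a pair may have been counted and low counts rest on fewer fragments.

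Symbols were matched for 51948 of 56941 gene IDs (91.2%). Counts were compared with edgeR 4.0.16 (R 4.3.3): default filter, TMM factors (0.984 to 1.016), robust quasi-likelihood F-test, Benjamini-Hochberg adjustment over 14681 genes, threshold 0.05. SE was taken as the size of the log2 fold change divided by the root of its F value, CPM use TMM library sizes, and the limit for a count of 0 is 3 counts, which covers counting error only. The script was tested on simulated data. The labels do not say whether replicates were separate animals, so p-values measure the spread between libraries. Every pair of libraries differed beyond sampling noise (lowest chi-square statistic per degree of freedom 4.19). WT replicate 1 stood at 18.8 from WT replicate 2 and 33.1 from WT replicate 3, which were at 7.54 from each other. Pairs of a WT and a KO library ran from 18 to 31.5. Alternatives used DESeq2 1.42.0 and limma 3.58.1.

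The 5 serpins, the gene lists and the motifs were chosen with earlier results of these data known. Named beside the 5 serpins were Chaf1b, every tested serpin, the 4 called genes with the largest change in each list (or the 3 most abundant where none passed), and the 3 genes nearest in pattern to each serpin. Other genes named to describe a list or a neighbourhood were chosen after their values were seen. Some results that the rule names are not reported here.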

Additional observations from a re-analysis of the deposited data

How the results depend on the processing

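Across 14 alternatives the log2 fold change of Serpinb6b ran from 1.09 to 1.16, that of Serpinb9 from 1.02 to 1.13 and that of Serpina3g from 1.01 to 1.24. Serpinb6a ran from -0.14 to 0.12, and Serpinb1a from -0.02 to 0.48 when 1 library was left out and 0.64 with limma-voom and quality weights per library. The 938 genes called became 1568 with no filter on low counts, 3310 with quality weights, and 295 to 2961 without 1 library (the highest without WT replicate 1). Called genes without 1 library numbered 1 to 2 for other clade B serpins, 0 to 2 for secreted serpins, 1 to 4 for granule storage, 0 to 3 for the other inhibitors and 0 to 9 for caspases and their inhibitors. With quality weights these lists had 2, 3, 3, 4 and 10 called genes. With no filter the secreted serpins had 3 and the other inhibitors 2, and DESeq2's Wald test called 2 secreted serpins. The cause was not tested, and fewer libraries were fitted in the fits without 1. The sign turned, never past the threshold, for Serpinb8 without KO replicate 3 (-0.0334, up to 0.6298 without KO replicate 1) and for Serpinc1 with quality weights (0.0711) and without WT replicate 1 (0.0015, down to -0.223 without WT replicate 2). The deviations of same-numbered libraries had correlations of -0.02, -0.08 and 0.13 over 9688 genes, against -0.14 to 0.16 for libraries of different numbers. With 3 libraries per group these values cannot decide whether the numbers pair the samples. In a fit with the numbers as a replicate block 671 genes passed, 1 granule storage gene passed, and Rab27a (adjusted p = 0.0549) and Casp1 (0.0688) missed the threshold while Serpinf1 (0.0426) passed in edgeR. A ratio scaled by gene length was not run, since lengths are not in the table used. Among the tested serpins depth limits Serpinb1a, Serpina3f, Serpinb1b, Serpinb8 and Serpini1, with at most 107 counts in any library.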
